A study of Homo sapiens with 20 samples.

Results

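The occupancy of FRA1 over IgG was read in 1205Lu cells, a human melanoma cell line, from 4 Cut&Run samples of the 20 samples in the series: 3 in which FRA1 was targeted and 1 control with IgG. All 54563 consensus peaks of the series were used, and a peak was taken as enriched when each FRA1 library held no fewer than 10 reads and reached 4 times the number of IgG reads plus 1, on unscaled counts and without a p-value. This rule kept 3871 peaks, 7.09% of all, and 7026 when replicate 1, the shallowest FRA1 library, was left out. A375 cells, a second human melanoma line with 3 FRA1 libraries and 1 IgG library, are used for comparison, and so are 1205Lu RNA-seq samples with a non-targeting siRNA (si-NT, n = 3) or siRNAs against FOSL1, the gene of FRA1 (si-FOSL1, n = 3). The labels give no drug or other treatment for the Cut&Run cells, and nothing in them says that replicates came from separate cultures, so the tests measure the spread between these samples, which may be technical.

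FRA1 is a member of the FOS family. It pairs with a JUN protein to form AP-1, which binds the sequence TGAGTCA, often at enhancers far from gene starts. In melanoma it is known as an effector of the MAP kinase pathway and is high in invasive, poorly differentiated cells. In Cut&Run, an antibody directs a nuclease to the chromatin that the protein occupies, and the released fragments are sequenced. IgG shows where the nuclease cuts without a specific antibody, so open or multiplied DNA gives reads there as well.

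The 1205Lu FRA1 libraries held 583750, 897407 and 781542 reads in peaks, and the IgG library 314569. The 3 A375 FRA1 libraries held 3354095 to 5316527. The median peak held 6, 5 and 5 FRA1 reads and 5 IgG reads, so the typical consensus peak showed no excess of FRA1 in this line. Replicates 2 and 3 agreed within sampling noise, with a chi-square over its degrees of freedom of 1.01 in 8327 peaks of at least 50 reads, whereas replicate 1 differed from them by more (1.60 and 1.49). Replicates 2 and 3 were therefore counted as 1 sample, and each mean ± SD has n = 2. The enriched peaks took 32.95% of the reads in replicate 1, 41.7% in replicate 2, 39.95% in replicate 3 and 7.40% in IgG. By RNA, 1205Lu cells with si-NT expressed SOX10 at 904 CPM (reads of a gene relative to its library's total) and S100B at 423 CPM, while the pigment genes MLANA, TYR and TYRP1 were each below 0.4 CPM and MITF was at 3.51 CPM. All 5 markers of other cell types (PTPRC, PECAM1, KRT5, KRT14, EPCAM) were below 1 CPM.

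Sequences at the strongest sites and at loci that gather many of them show what the peaks hold. Each run below is from the plus strand of GRCh38 and reaches 50 bases to each side of the middle of the TGAGTCA sequence nearest to the peak centre, with every TGAGTCA, or TGACTCA as it reads on the other strand, in capitals. The C20orf85 site is shown because it is among the 12 strongest and held no such sequence, and its run is centred on the peak.
NFATC2, first site, chr20:51366197-51366297: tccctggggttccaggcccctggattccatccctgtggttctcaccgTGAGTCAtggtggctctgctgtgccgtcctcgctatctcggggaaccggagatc
NFATC2, second site, chr20:51447127-51447227: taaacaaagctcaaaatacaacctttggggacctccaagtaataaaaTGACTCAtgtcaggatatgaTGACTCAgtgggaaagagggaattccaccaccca
C20orf85 site, chr20:58017504-58017604: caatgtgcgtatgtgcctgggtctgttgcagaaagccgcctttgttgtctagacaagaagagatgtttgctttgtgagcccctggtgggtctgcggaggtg
BMAL1 site, chr11:13215355-13215455: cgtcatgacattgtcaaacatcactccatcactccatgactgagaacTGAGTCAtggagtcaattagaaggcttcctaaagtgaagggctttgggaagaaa
ABCC3 site, chr17:50639021-50639121: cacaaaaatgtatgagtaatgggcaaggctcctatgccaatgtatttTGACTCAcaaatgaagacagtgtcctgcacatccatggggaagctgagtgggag
SERP2 site, chr13:44313904-44314004: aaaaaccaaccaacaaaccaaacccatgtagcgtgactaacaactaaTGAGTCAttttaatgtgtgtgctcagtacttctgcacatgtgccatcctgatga
LIF locus, chr22:30196229-30196329: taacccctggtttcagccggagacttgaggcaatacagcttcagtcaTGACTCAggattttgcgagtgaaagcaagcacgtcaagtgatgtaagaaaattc
IER3 locus, chr6:30769689-30769789: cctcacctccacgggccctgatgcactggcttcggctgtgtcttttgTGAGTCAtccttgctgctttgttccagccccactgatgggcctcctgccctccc
PZP locus, chr12:9340770-9340870: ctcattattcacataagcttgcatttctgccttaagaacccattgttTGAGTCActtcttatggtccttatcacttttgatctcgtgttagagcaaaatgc
SMAD3 locus, chr15:67049800-67049900: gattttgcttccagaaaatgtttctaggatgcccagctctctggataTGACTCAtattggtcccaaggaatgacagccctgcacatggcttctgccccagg

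Of the 12 strongest sites, ranked by the mean FRA1 count, 5 were intergenic, 4 lay in introns and 3 within 3 kb of a transcript start. A pair of them flanked or lay within NFATC2, which encodes a calcium-regulated transcription factor that partners AP-1. The first, chr20:51365562-51367088, held 539, 1039 and 827 FRA1 reads in replicates 1, 2 and 3 against 20 with IgG (mean 736 ± 279). It is intergenic, 32.9 kb from the nearest NFATC2 start, and holds 4 TGAGTCA sequences, 2 of them within 100 bp of its centre. The second NFATC2 site, chr20:51446276-51447856, lies in an intron and held 389, 742 and 615 FRA1 reads against 20. At both sites every FRA1 library stood far above IgG, and the excess was 4.27 ± 1.46 and 3.81 ± 1.24 on the log2 scale (± standard error, edgeR, adjusted p = 0.031 and 0.023). These sites were chosen on the same counts, so the fits here and below describe size and error and are no independent support.

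**Figure D1:**
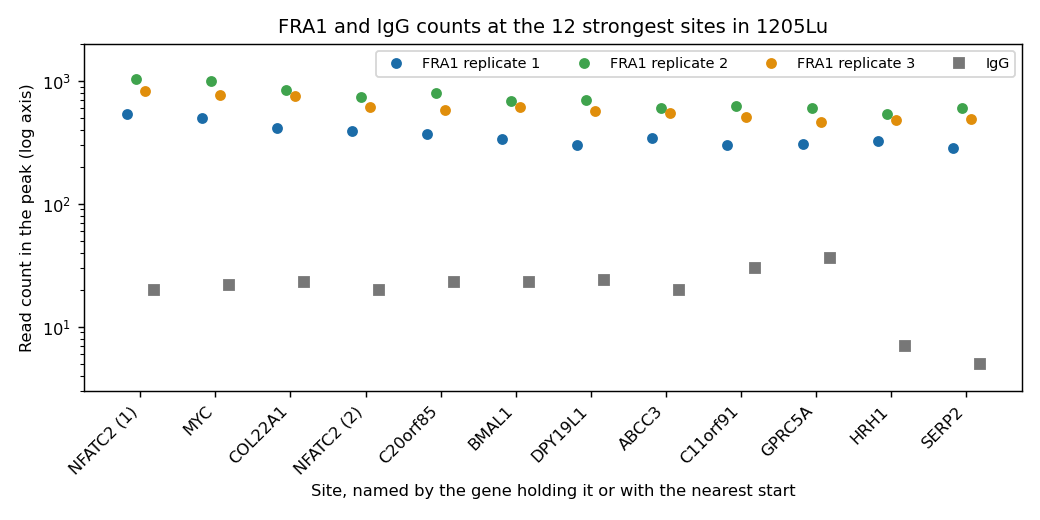
Read counts in the peak (log axis) at the 12 sites with the highest mean FRA1 count in 1205Lu cells, one point for each FRA1 replicate and a grey square for the single IgG library. FRA1 counts lay between 285 and 1039 and IgG counts between 5 and 36. The groups do not overlap at these sites because the fold rule that chose them requires it.

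Sites on chromosome 8 ranked between the NFATC2 pair, at 2 and 3. The site chr8:127850704-127852692 lies within PVT1, a noncoding gene, and within 3 kb of an annotated transcript start. It held 499, 997 and 773 FRA1 reads against 22, and the nearest start of a protein-coding gene was that of MYC, 113 kb away. The site chr8:139214926-139216417 is intergenic, 302 kb from the start of COL22A1, a collagen gene, and held 412, 840 and 751 FRA1 reads against 23. Both were called by edgeR (adjusted p = 0.034 and 0.031).

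Of the remaining sites in the first 12, several had a gene body around them. ABCC3, a drug and bile salt exporter, held 346, 600 and 546 FRA1 reads against 20 in an intron 4.28 kb from its start. HRH1, a histamine receptor, held 322, 541 and 478 against only 7 IgG reads at its start, an excess of 4.97 ± 1.27 on the log2 scale (edgeR, adjusted p = 0.0036). GPRC5A, an orphan receptor, held 304, 606 and 465 against 36, which did not pass (2.62 ± 1.03, adjusted p = 0.065). The site nearest to SERP2, chr13:44312563-44314506, had the fewest IgG reads of the 12, with 285, 601 and 491 FRA1 reads against 5 (5.43 ± 1.33, adjusted p = 0.0024). The other sites had mean FRA1 counts between 433 and 532, and that of DPY19L1 lay within the gene. Those of C11orf91, C20orf85 and BMAL1, the last a core gene of the circadian clock, are named only by the nearest start, 9.36, 133 and 60.7 kb away. In all, 11 of the 12 were called, 11 held a TGAGTCA sequence somewhere in the peak and 4 held one within 100 bp of the centre.

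The order of the FRA1 replicates was the same at each of these sites, with replicate 1 lowest and replicate 2 highest, as in the library totals. Over all peaks tested, edgeR called 3398 of 29504 above IgG (11.5%), and 3125 of the 3871 enriched peaks were among them. Without scaling of the libraries, or without the filter on low counts, edgeR called none, so every call named here is lost under those settings; 4123 and 6299 peaks then had an unadjusted p under 0.05 with higher FRA1, and DESeq2 called 1807.

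The 100 strongest peaks, with mean FRA1 counts from 232 to 736 (the next peak had 230.5), were wide, with a median of 1658 bp against 715 bp for all consensus peaks. They took 3.77%, 4.86% and 4.60% of the FRA1 reads in replicates 1, 2 and 3 and 0.588% of the IgG reads. Of the 100, 46 lay within 3 kb of a transcript start (Wilson 95% interval 36.6% to 55.7%), 31 in introns and 21 between genes. Promoter peaks were less frequent among all enriched peaks, at 29.0% (27.6% to 30.5%), than among all consensus peaks, at 32.3% (31.9% to 32.7%). By the same rule in A375 cells, 95 of the 100 were enriched, against 57.4% of all consensus peaks.

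A share of these strong peaks lay in parts of the genome where IgG was also high. The local IgG level was the IgG reads per base over peaks below the fold rule within 1 Mb, divided by the same over the genome. It was above 1.5 at 37 of the 100 strongest peaks and at 9 of the 12 strongest, but at 10.5% of enriched peaks and 8.93% of all consensus peaks. Chromosomes 7, 8 and 20 held 34 of the 100, while they held 13.2% of the enriched and 12.8% of all peaks. Between 50 and 60 Mb of chromosome 20, where 7 of the 100 lay, including both NFATC2 sites, IgG over peaks below the rule was 1.96 times the genome level in 1205Lu cells and 1.35 times in A375 cells. Between 130 and 140 Mb of chromosome 8, with 5 of the 100, it was 1.56 times in 1205Lu cells and below the genome level in A375 cells. When each count was divided by its local IgG level, 58 of the 100 remained and 16 lay on these chromosomes. The number of DNA copies in these cells was not measured here, and its part in the counts was not tested.

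**Figure D2:**
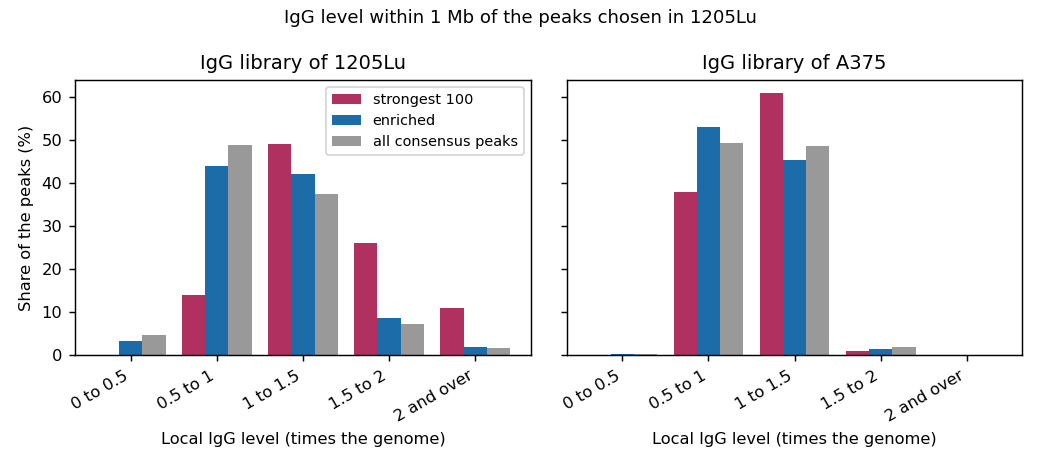
Share of peaks (%) by the local IgG level, in times the genome level, in the IgG library of 1205Lu (left) and of A375 (right), for the 100 strongest peaks, all enriched peaks and all consensus peaks. In 1205Lu the strongest peaks reached 26.0% between 1.5 and 2 times and 11% at 2 times or more, and in A375 1.00% and 0.

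By the size of the fold, the leading sites were peaks with no IgG read. Their mean FRA1 counts, from 58.75 to 77.0, were far below those of the 100 strongest peaks but above the median of 51.25 over all enriched peaks. Their ratio is set against a floor of 3 reads in the IgG library, which covers counting error only, and it depends on the scaling, since the FRA1 libraries were deeper than IgG. At FAN1, a DNA repair nuclease, chr15:30922558-30923228 held 52, 108 and 96 FRA1 reads, 25.7 times the floor in unscaled counts and 11.1 times with the libraries at equal totals. The sites nearest to AMOT and EXOC6 and the intron site of RPRD2 were at 10.5, 8.86 and 8.35 times the floor at equal totals. With the IgG libraries of both lines as control, the fitted excess on the log2 scale was 3.91 at FAN1, 4.04 at AMOT, 4.78 at EXOC6 and 3.99 at RPRD2. In A375 cells the FAN1 site held 7, 17 and 19 FRA1 reads against 7 with IgG, and the RPRD2 site 8, 3 and 5 against 5, so neither was enriched there. Among all enriched peaks, 89 had no IgG read.

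The enriched peaks were mostly scattered. Linked at gaps of up to 20 kb, they formed 3465 groups, of which 3131 were single peaks and 17 held 4 or more (71 peaks). The richest locus lay beside LIF, a cytokine of the interleukin-6 family, at chr22:30195427-30224666, where all 6 consensus peaks in 29.2 kb were enriched, 22.3 to 50.4 kb from its start. Its strongest peak held 237, 547 and 376 FRA1 reads against 17 (3.42 ± 1.02 on the log2 scale, edgeR, adjusted p = 0.013), and its weakest 19, 32 and 35 against 2. Summed over the locus, FRA1 held 591, 1222 and 941 reads against 57 with IgG, all 6 peaks were called by edgeR, and each held TGAGTCA. In A375 cells, 5 of the 6 were enriched.

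**Figure D3:**
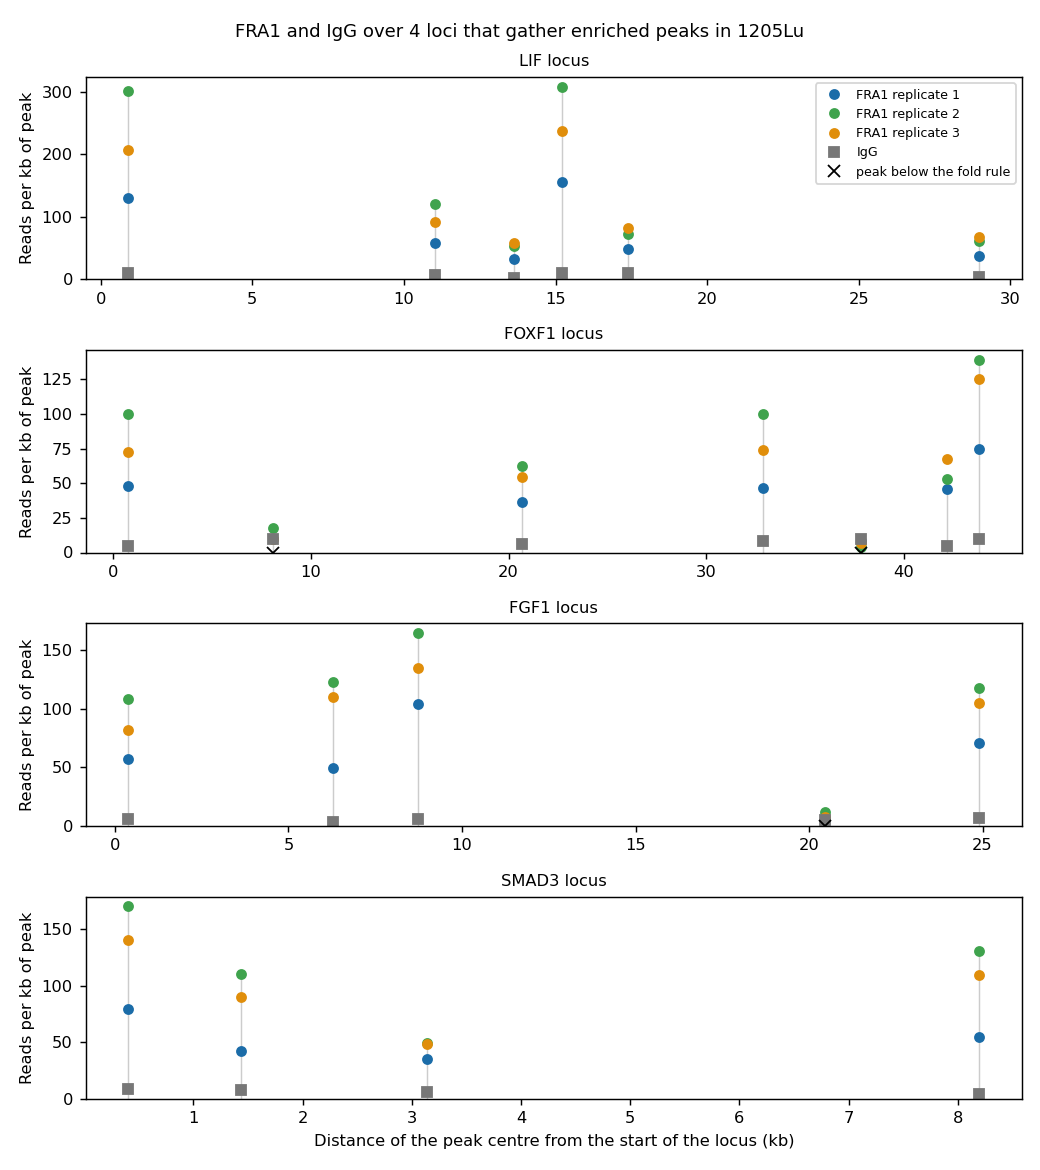
Reads per kb of peak for each FRA1 replicate (circles) and IgG (squares) against the distance of the peak centre from the start of the locus (kb), at the loci named for LIF, FOXF1, FGF1 and SMAD3. Crosses mark consensus peaks below the fold rule, 2 at FOXF1 and 1 at FGF1, where FRA1 and IgG lie together near the axis. At each of the other peaks FRA1 stands above IgG, as the rule requires.

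At the FOXF1, SMAD3 and IER3 loci too, the enriched peaks lay at a distance from the start of the gene that names the locus. FOXF1, a forkhead factor of mesenchyme, had 5 enriched peaks of 7 in 44.2 kb, 112 to 155 kb away, and their 211, 387 and 328 FRA1 reads stood against 26. At SMAD3, the intracellular transducer of TGF-beta signals, 4 of 4 peaks within 8.97 kb were enriched, 14.1 to 21.9 kb from the nearest start, with 211, 454 and 385 FRA1 reads against 24. IER3, an early response gene of the MAP kinase pathway, had 4 of 5, the nearest 4.61 kb from its start, with 334, 668 and 516 against 47. All 4 enriched peaks of the IER3 locus lay in HCG20, a noncoding gene, and within 3 kb of a transcript start. FRA1 exceeded IgG by 6.75-fold to 22.5-fold at the single peaks of the SMAD3 locus and by 6.96-fold to 11.8-fold at those of IER3, in mean counts.

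Some further loci with 4 enriched peaks lay inside noncoding genes. The locus named for KLF14 lies in LINC-PINT and held 477, 960 and 807 FRA1 reads against 83, with a local IgG level of 1.64. A group at chr5:142466191-142491564 lies in SPRY4-AS1, between SPRY4, a feedback inhibitor of the MAP kinase pathway, and FGF1, and held 272, 493 and 415 reads against 19. None of its 4 enriched peaks held TGAGTCA, although all 4 were called by edgeR, with an excess of 2.91 to 3.78 on the log2 scale. The locus in PCAT1, named for LRATD2, held 306, 639 and 518 FRA1 reads against 40. The locus in CYP1B1-AS1, named for CYP1B1, had 4 enriched peaks of 6. MTHFD1L, an enzyme of mitochondrial folate metabolism, differed in position, with 1 enriched peak at its start and 3 in introns.

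Some loci were weak in A375 cells by the same rule. At the LRATD2 locus 1 of 4 peaks was enriched in A375, and its strongest 1205Lu peak, chr8:126839445-126841044, held 172, 336 and 262 FRA1 reads against 25 in 1205Lu but 9, 13 and 9 against 12 in A375. At the PZP locus on chromosome 12, with 2 intergenic peaks and 2 within 3 kb of a transcript start, 1 of 4 was enriched in A375, with 176, 276 and 218 FRA1 reads there against 306, 732 and 605 in the shallower 1205Lu libraries. Tested as the interaction of cell line and antibody in edgeR, the excess over IgG was larger in 1205Lu at 1279 of 54552 peaks (2.34%) and smaller at 347 (0.636%). The 3 A375 FRA1 libraries entered separately, although their pairs differed little beyond sampling noise (chi-square over its degrees of freedom 1.06 to 1.27 in peaks of at least 50 reads). Part of the spread in this test is therefore close to technical, and without 1205Lu replicate 1 all of it comes from A375, so the counts may be too high. At 3 of the 4 LRATD2 peaks and 3 of the 4 PZP peaks this test had an adjusted p under 0.05, against 1 of 6 at LIF and none at SMAD3, FOXF1 or IER3. Of the 100 strongest peaks, 9 passed with a larger excess in 1205Lu and none with a smaller one. These peaks and loci were chosen on 1205Lu counts that enter the test. The choice itself therefore favours a larger excess in 1205Lu, and the direction is no independent support. The count turned on scaling: without it, 686 peaks were larger and 21562 smaller in 1205Lu, with the median over all peaks at -2.67 on the log2 scale, against -0.03 with TMM. Without FRA1 replicate 1 the counts were 6038 and 2421.

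The sequence content near the peak centres differed little with strength and more with the cell lines in which a peak was enriched. TGAGTCA, searched on both strands within 100 bp of the centre, was found in 33.0% of the 100 strongest peaks (Wilson 95% interval 24.6% to 42.7%), in 30.4% of all enriched peaks (28.95% to 31.9%) and in 28.6% of all consensus peaks (28.3% to 29.0%). Among the 2453 peaks enriched in both lines it was found in 36.7% (34.8% to 38.6%). Among the 1418 enriched in 1205Lu only it was found in 19.5% (17.5% to 21.6%), near the 21.5% (20.9% to 22.0%) of peaks enriched in neither line. The gap held among the 1500 strongest, with 22.3% (17.9% to 27.4%) of 296 peaks in 1205Lu only and 34.3% (31.7% to 37.0%) of 1204 in both. Without FRA1 replicate 1 the shares were 19.5% in 1205Lu only and 36.4% in both lines, and with TMM-scaled counts 21.6% and 36.9%. Peaks enriched in A375 only held it in 33.8% (33.3% to 34.4%). Over the whole peak the share was 88.0% in the 100 strongest and 57.7% in all consensus peaks, but width differed as given above. The nearness of peaks in 1205Lu only to those in neither line depended on the window. Over the whole peak the shares were 52.5% and 40.4%, against 81.4% in both lines, at median widths of 656, 543 and 1064 bp. Within 50 bp of the centre they were 9.73%, 13.0% and 20.1% in that order.

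**Figure D4:**
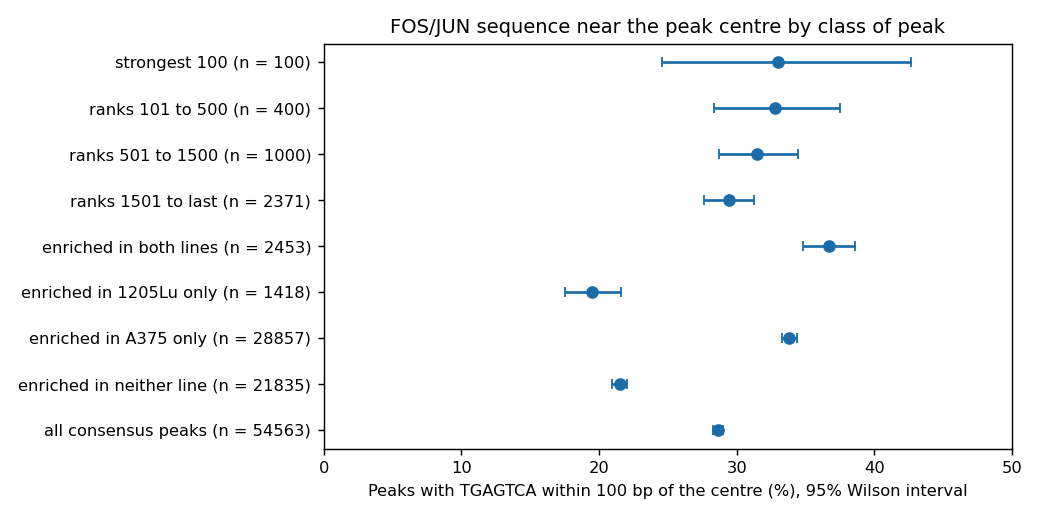
Share of peaks with TGAGTCA within 100 bp of the centre (%), with 95% Wilson intervals, by rank of the mean FRA1 count in 1205Lu and by the lines in which a peak was enriched. Peaks enriched in 1205Lu only, at 19.5%, lie beside those enriched in neither line, at 21.5%, and below those enriched in both, at 36.7%.

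Among the short sequences of other factor families, that of RUNX factors was about as frequent in enriched peaks as in all peaks. Those of TEAD and ETS factors were somewhat less frequent, and those of SOX and SP factors differed more. GGAATG, bound by TEAD factors, was in 15.0% (13.9% to 16.1%) of enriched and 16.9% (16.55% to 17.2%) of all peaks, with the same window and both strands. CCGGAA of ETS factors was in 3.25% (2.74% to 3.86%) and 3.93% (3.77% to 4.10%), and TGTGGT of RUNX factors in 14.4% and 14.6%. ACAAAG, bound by SOX factors, was in 20.9% of enriched peaks, in 26.2% (24.0% to 28.6%) of the peaks enriched in 1205Lu only, in 17.9% of those enriched in both lines and in 15.9% of all. GGGCGG, bound by SP factors, was in 5.48% of enriched peaks and in 3.03%, 6.89% and 9.01% of the other classes in that order. The median GC content of peaks enriched in 1205Lu only, of those enriched in both lines and of all peaks was 42.0%, 44.2% and 43.9%, and its part in these shares was not tested.

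In pathways linked with FRA1, a minority of the genes held an enriched peak within 10 kb of their bodies. Of all 20046 protein-coding genes, 11.1% had at least 1, and of the 13651 tested for RNA 13.8%. The lists are small, so their counts are a description, and longer genes offer more room for peaks, which was not tested. Among 11 AP-1 subunits, FOSL1 and ATF3 had one. Among 12 YAP and TEAD targets, TEAD1, WWTR1, AXL and NT5E did, and among 17 integrin and adhesion genes, 6 did, including ITGA6, ITGB1 and PXN. Of 16 TGF-beta and matrix genes, 6 did, including TGFBI, TGFBR2, SMAD3 and TNC. Counts were 3 of 15 for ERK feedback and output, 4 of 12 for invasion and proteases, 5 of 17 for receptor tyrosine kinases and ligands and 2 of 12 for G1 cell cycle genes. Of markers of dedifferentiated melanoma, several of them also in the lists above, 6 of 8 did, and of melanocyte lineage genes 2 of 10. These lists were chosen with results of these data known.

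The study reports FRA1 at the promoters of AXL, CDK6 and FSCN1 from its MACS2 peak calls, a rule unlike the fold rule here. Of the genes the study follows, AXL, a receptor tyrosine kinase of invasive melanoma, had the clearest site. The peak chr19:41225180-41226590, within 3 kb of a transcript start, held 155, 316 and 242 FRA1 reads against 6 and 3 TGAGTCA sequences (4.24 ± 0.98 on the log2 scale, edgeR, adjusted p = 0.0015). CDK6, a kinase of G1 progression, had 3 enriched intron peaks of 21, the strongest with 82, 182 and 152 reads against 11 (adjusted p = 0.0083). FOSL1 itself had 1 of 5, with 47, 90 and 68 against 6 (adjusted p = 0.0078). At FSCN1, the actin-bundling protein fascin, neither of 2 peaks was enriched by the fold rule: one held 97, 136 and 98 FRA1 reads against 26, a lowest ratio of 3.59 and thus just under the rule (1.15 ± 0.62, adjusted p = 0.20), the other 47, 30 and 30 against 49. FSCN1 lies between 0 and 10 Mb of chromosome 7, where IgG over peaks below the rule was 2.20 times the genome level in 1205Lu cells. The part of this in the ratio was not tested. None of 8 peaks at MITF, the master factor of melanocytes, was enriched, and each held at most 10 FRA1 reads in any library.

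After FOSL1 silencing the RNA of the genes beside these sites moved in both directions. FOSL1 was at 479 ± 7.99 CPM with si-NT and 67.0 ± 3.11 with si-FOSL1. Over 13728 protein-coding genes, 256 passed as higher in the si-NT samples (1.86%) and 152 as lower (1.11%), where a call needed an adjusted p below 0.05 and a log2 fold past 1 in either direction. By the adjusted p alone, 23% were higher and 24% lower. NFATC2 was at 122, 119 and 119 CPM with si-NT and at 256, 242 and 248 with si-FOSL1, so it was lower with FRA1 present, by 1.05 on the log2 scale (edgeR, adjusted p = 1.7e-16). LIF was at 197, 200.0 and 193 CPM with si-NT and 149, 144 and 150.6 with si-FOSL1, a log2 fold of 0.41 ± 0.03 (adjusted p = 2.0e-10). The groups did not overlap for either gene, and the change of LIF was under the fold limit.

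Among the other genes of named sites, COL22A1 (0.74), EXOC6 (0.62), AMOT (0.45) and DPY19L1 (0.39) were higher with si-NT by the adjusted p alone, in log2 fold, and IER3 (-0.49), BMAL1 (-0.45), SMAD3 (-0.39), RPRD2 (-0.37), LRATD2 (-0.32) and MYC (-0.24) lower. FOXF1 (-0.01), HRH1 (-0.08), MTHFD1L (0.05), FAN1 (0.06), ABCC3 (-0.17), CYP1B1 (0.18), GPRC5A (0.25) and C11orf91 (0.78) did not pass. KLF14 passed both limits (1.06 ± 0.29) at 2.19 CPM. PZP, FGF1, SERP2 and C20orf85 were below the expression filter in both groups.

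**Figure D5:**
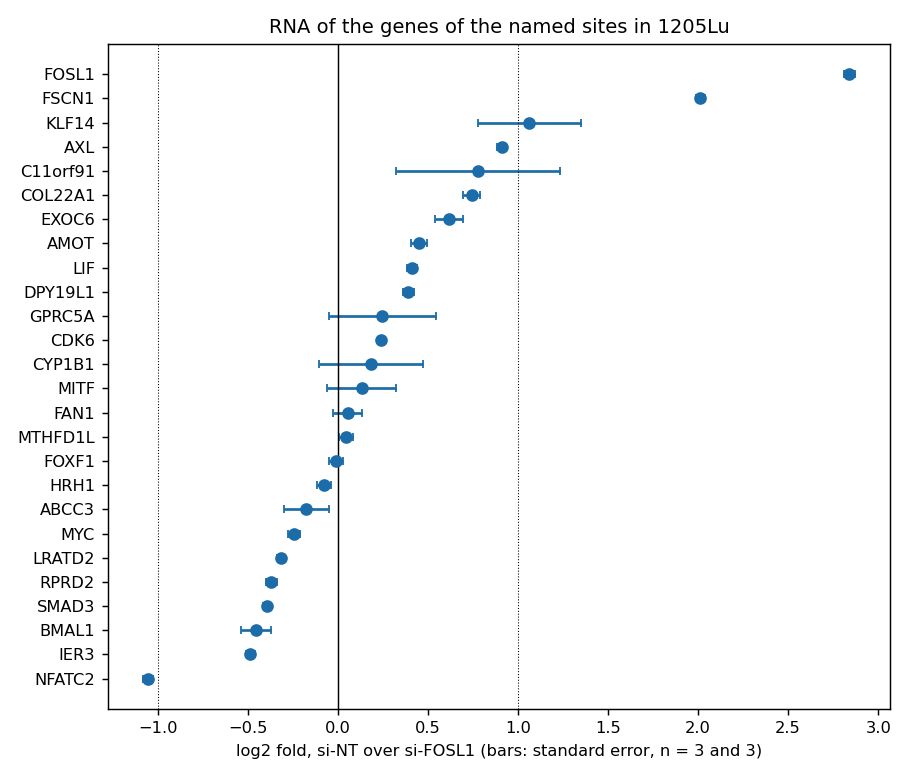
Log2 fold of si-NT over si-FOSL1 in 1205Lu (points, with standard errors, 3 samples against 3) for tested genes of the named sites and loci and for AXL, CDK6, FOSL1, FSCN1 and MITF. Dotted lines mark the fold limit of 1 in each direction. Values lie on both sides of 0, from -1.05 for NFATC2 to 2.84 for FOSL1.

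Among the genes of the lists that held an enriched peak, the direction differed from list to list. All 6 integrin and adhesion genes and all 4 YAP and TEAD targets with such a peak were higher with si-NT by the adjusted p. Of the 6 TGF-beta and matrix genes 1 was higher and 4 lower, and of the 5 receptors and ligands 1 and 3. The lists were chosen with results of these data known, so these counts describe and cannot be set against a rate over all genes. The part of the expression level in them was not tested. The dedifferentiated melanoma list held 6 genes with an enriched peak, 4 of them higher and 2 lower, and the other lists held 2 to 4 each. AXL was at 493 ± 7.61 CPM with si-NT and 263 ± 8.49 with si-FOSL1, a log2 fold of 0.91, and NT5E, a surface nucleotidase, at 505 ± 6.39 and 317 ± 5.52 (0.67). PLAT, tissue plasminogen activator, passed the fold limit (1.12 ± 0.02). By the adjusted p alone, E2F1 (0.65), ITGB3 (0.51), ITGB1 (0.42), TNC (0.36), WWTR1 (0.33), ITGA6 (0.30), FLNA (0.25), CDK6 (0.24), PXN (0.22), PHLDA1 (0.17), PLAUR (0.16), TEAD1 (0.10), SPRED2 (0.07) and CD44 (0.05) were higher with si-NT. TGFBI (-0.79), FGFR1 (-0.53), TGFBR2 (-0.30), the ERBB ligand NRG1 (-0.25), TIMP2 (-0.15) and EGFR (-0.13) were lower, as was ATF3 (-1.20), which passed both limits, and PDGFC (0.21), SPARC (0.03) and MMP2 (0.02) did not pass. NRG1 had 4 enriched peaks, the strongest with 44, 74 and 71 FRA1 reads against 6, and the strongest at TIMP2, a protease inhibitor, held 164, 330 and 286 against 8. FSCN1, without an enriched peak, was at 471 and 117 CPM (2.01). Over whole lists, with or without a peak, 10 of 17 tested integrin and adhesion genes were higher with si-NT and 5 lower by the adjusted p (median log2 fold 0.19). In the TGF-beta and matrix list 1 of 16 was higher and 12 lower (median -0.40), and in the receptor list 2 of 14 were higher and 11 lower (median -0.25), against a median of 0.000925 over all genes tested. The counts were 2 higher and 5 lower of 10 AP-1 subunits, 3 and 10 of 15 ERK genes, 5 and 5 of 11 YAP and TEAD targets, 4 and 3 of 9 protease genes and 4 and 2 of 10 G1 genes. Of all 13728 tested protein-coding genes, 23% were higher and 24% lower by the adjusted p, so counts in such small lists are a description only.

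Over all genes, an enriched peak at a transcript start went with more genes higher than lower with si-NT by the adjusted p, though not with more genes past the fold limit. Of 666 tested protein-coding genes with an enriched peak within 3 kb of a start, 33.5% were higher with si-NT and 23.9% lower by the adjusted p, and 13 (1.95%) and 5 (0.751%) passed the fold limit. With any consensus peak there, of 8331 genes, 26.1% were higher and 26.0% lower, and 1.72% and 0.912% passed the fold limit, near the shares with an enriched peak. The 666 genes were more highly expressed, with a median of 45.8 CPM against 27.9 CPM, and the part of this in the shares was not tested. The 13 included FOSL1 itself, KIAA0040 (2.68), DYNLT3 (1.60), the copper chaperone ATOX1 (1.47) and the merlin gene NF2 (1.03), chosen after their values were seen. KIAA0040 held 42, 82 and 57 FRA1 reads against 3, and ATOX1 60, 207 and 152 against 7. Of the 81 tested genes at the 100 strongest peaks, 25 were higher and 25 lower by the adjusted p, and 1 passed the fold limit in each direction.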

How the data were processed

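Cut&Run and RNA-seq counts were used as the authors deposited them. For Cut&Run, per the labels and the study's methods, the authors aligned reads to GRCh38 with Bowtie2 (2.4.1), called peaks with MACS2 (2.1.1.20160309) and deposited raw read counts over one set of consensus peaks. The samples on which the peaks were called, single or pooled, are not given in the sources used here. For RNA-seq they used STAR (2.7.7a) and RSEM (1.3.0), and the deposited expected counts are whole numbers. The 6 A375 columns of that table were not used.

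The ends of all 54563 peaks fell inside the GRCh38 chromosomes used here, and annotation came from GENCODE 44. Intergenic, intron and exon describe the peak centre, and a promoter peak lies within 3 kb of any transcript start. Identifiers of 99.4% of the tested protein-coding genes matched it. Cut&Run counts were tested with edgeR 4.0.16 (R 4.3.3), quasi-likelihood, TMM and Benjamini-Hochberg adjustment, on peaks with at least 20 reads summed over the fitted libraries, with replicates 2 and 3 summed to 1 library. With 1 IgG library the residual spread comes from the FRA1 libraries (coefficient of variation 22.7%), and IgG is assumed to vary like them. RNA used filterByExpr in the same way (4.2%), and CPM are on TMM library sizes. The standard errors of edgeR folds were derived, as the absolute log2 fold over the square root of the quasi-likelihood F, and are approximate. Chains, motifs and intervals were computed in Python 3.11.15. Tests were tried on simulated counts. Intervals and floors cover counting error only.

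Sites named are the 12 enriched peaks with the highest mean FRA1 count, the 5 called peaks with the largest fold and the strongest peak of each of 10 loci, chosen by number of peaks and then by FRA1 minus IgG reads. Each takes the name of the protein-coding gene around its centre, or otherwise of the nearest start. Genes named are those of these sites, AXL, CDK6, FSCN1, FOSL1, MITF, and up to 4 genes per list with the most enriched peaks within 10 kb, with those tied for the last place; others are said to be chosen after their values were seen. One of the 5 sites by fold and its gene, and one gene of the lists, are not reported here. The members and lists were chosen with earlier results of these data known.

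Alternatives were other fold limits, scalings, count minimums, controls, gaps, windows and tools (DESeq2 1.42.0), each replicate left out and a replicate block for RNA. The rankings by local IgG level, per kb and after subtraction of IgG, and the sequence shares by line with other sets of enriched peaks, the fit without FRA1 replicate 1 and the scaled folds of sites without IgG reads were added after seeing the data.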

Additional observations from a re-analysis of the deposited data

Results flagged for a closer look

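The excess of FRA1 over IgG differed between the lines at 3 of the named sites by the interaction of cell line and antibody in edgeR. The strongest peak of the LRATD2 locus, within PCAT1, had a log2 difference of 6.11 (1205Lu minus A375, adjusted p = 0.016), with 172, 336 and 262 FRA1 reads against 25 in 1205Lu and 9, 13 and 9 against 12 in A375. The FAN1 site had a difference of 13.14 (adjusted p = 0.020) and the RPRD2 site one of 13.67 (adjusted p = 0.031). At the FAN1 and RPRD2 sites 1205Lu IgG held no read, so the fitted size depends on the prior count and is no bound. Without scaling of the libraries the differences were 3.45, 8.46 and 9.01, with adjusted p = 0.0038, 0.00078 and 0.00057.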

How the results depend on the processing

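The number of enriched peaks depended on the fold and the scaling: from 3871, it was 8492 at 2 times IgG, 1123 at 8 times, 1508 with equal totals and 2020 with TMM-scaled counts. Leaving out 1 FRA1 replicate gave 3902 to 7026, the highest without replicate 1. Peaks called by edgeR (3398) were 0 without scaling, 0 without the filter, 1807 with DESeq2, whose adjusted p was NA for 23452 peaks, and 5514 with both IgG libraries as control. Without replicate 2 or 3 they were 2839 and 2686, and without replicate 1, with replicates 2 and 3 as separate libraries that differ by sampling noise, 3864. Of the calls, 82.3% were above IgG, against 73.8% with replicates 2 and 3 as separate libraries, 69.9% to 74.3% without replicate 2 or 3 and 54.8% without replicate 1. Peaks that differed between the lines (1626) were 22248 without scaling and 1470 to 8459 with 1 replicate left out. Loci (17) were 4 at a gap of 10 kb, 50 at 50 kb and 11 among peaks called by edgeR. TGAGTCA shares were 16.3% within 50 bp, 70.8% over the whole peak and 31.9% in peaks called by edgeR, and the promoter share was 17.2% at 1 kb. Genes called after silencing (408) were 6449 by adjusted p alone, 394 with the replicate block and 373 to 426 with 1 sample left out. Replicate numbers did not pair the RNA samples (correlations -0.008 to -0.005). The strongest 100 on chromosomes 7, 8 and 20 (34) were 16 after division by local IgG, 35 per kb and 34 minus IgG. No named site changed direction. GPRC5A passed with DESeq2, with replicates 2 and 3 as separate libraries, with both IgG libraries and without any 1 FRA1 replicate. Small RNA folds changed sign with 1 sample left out, ranging from -0.027 to 0.536 for CYP1B1, -0.041 to 0.008 for FOXF1, -0.028 to 0.465 for GPRC5A (all reversed without si-FOSL1 replicate 3) and -0.048 to 0.114 for FAN1 (without si-NT replicate 1). The causes were not tested. One IgG library of 314569 reads limits the fold at weak peaks.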

Other observations

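Below IgG, edgeR called 733 of the 29504 peaks tested. Without scaling of the libraries, or without the filter on low counts, it called 0, so this class depends on the settings. The 733 peaks had a different make-up from the enriched ones. They held a median of 5.5 FRA1 reads (mean count) against 15 IgG reads, and 46.1% (Wilson 95% interval 42.5% to 49.7%) lay within 3 kb of a transcript start, against 29.0% of enriched and 32.3% of all consensus peaks. Their median GC content was 50.9%, against 43.4% in enriched and 43.9% in all consensus peaks. TGAGTCA was within 100 bp of the centre in 22.8% (19.9% to 26.0%), against 30.4% in enriched and 28.6% in all consensus peaks. DESeq2 called 5 peaks below IgG.

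PMEL, a pigment cell gene, had an enriched peak within 10 kb with 76, 182 and 139 FRA1 reads against 11, although its RNA was at 0.691 CPM with si-NT. PAX3, a melanocyte lineage factor, also had one, with 39, 77 and 62 against 4, and its RNA was lower with si-NT (-0.67 on the log2 scale, edgeR, adjusted p = 1.6e-09). PMEL and PAX3 were the 2 of 10 melanocyte lineage genes with such a peak, against 11.1% of all protein-coding genes. Over this list, 2 of 7 tested genes were higher with si-NT and 2 lower by the adjusted p (median log2 fold 0.07), against 23% and 24% of all tested protein-coding genes.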
